A study of Mus musculus with 21 samples.

Results

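The transcripts described here were those of the MYC and MAX network, 10 genes of the 20900 in the deposited expression table. They were taken from the table by symbol: the MYC genes Myc, Mycn and Mycl, their shared partner Max, the MXD genes Mxd1, Mxd3, Mxd4 and Mxi1, and the larger MAX partners Mnt and Mga. All 10 had a row and all 10 passed the filter on low values, with between 118 reads (Mxd4) and 17829 reads (Mycn) per library. The libraries were prepared from polyadenylated RNA of E14, an established mouse embryonic stem cell line, kept in serum with leukaemia inhibitory factor. Cells were untreated (0 h, the control) or exposed to 1 µM of either BMH-21 or CX-5461 for 2, 4 or 8 h, which gave 7 groups of 3 replicates and 21 libraries. Both compounds block RNA polymerase I, which makes the large ribosomal RNAs. The 0 h cells were the control for both compounds at every time, so hours in culture and the compound cannot be told apart. The 6 comparisons with this control share its 3 libraries. The labels do not say whether replicates were separate cultures, so the spread between libraries behind the p-values may be technical. That spread was also pooled in part over genes.

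MYC proteins are basic helix-loop-helix leucine zipper factors that bind DNA as dimers with MAX, chiefly at the E-box CACGTG, and are known for driving growth, ribosome production and proliferation. MXD proteins, MXI1 and MNT compete for MAX, bind the same sites and recruit SIN3 and histone deacetylases to repress them. MGA joins MAX to the Polycomb complex PRC1.6 and is known in embryonic stem cells for keeping germline genes silent. In these cells Mycn and Myc support self-renewal, while Mxd genes are better known from cells that stop dividing and differentiate.

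Because network proteins bind the E-box, the promoters of the members were searched for it, and the 3 that hold it are shown. RefSeq promoter windows (build GRCm38.p6, 250 bases before to 50 after the start site) were given for 9 of the 10 members, all but Myc. The letters CACGTG read the same on both strands, no other motif was searched, and they occurred in 2349 of all 32851 windows of this length (7.2%). Capitals mark the E-box. It begins at position -3 in Max, -219 in Mxd4 and -123 in Mnt, counted from the first transcribed base as 0. The windows are chr12:76962199-76962498 (minus strand) for Max, chr5:34187661-34187960 (minus strand) for Mxd4 and chr11:74830674-74830973 (plus strand) for Mnt.
Max: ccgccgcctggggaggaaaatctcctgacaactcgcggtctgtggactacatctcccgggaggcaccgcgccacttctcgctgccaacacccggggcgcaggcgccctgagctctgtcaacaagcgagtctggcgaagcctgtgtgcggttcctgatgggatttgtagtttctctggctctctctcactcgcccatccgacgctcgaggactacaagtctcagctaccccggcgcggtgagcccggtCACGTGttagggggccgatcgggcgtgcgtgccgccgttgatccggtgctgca
Mxd4: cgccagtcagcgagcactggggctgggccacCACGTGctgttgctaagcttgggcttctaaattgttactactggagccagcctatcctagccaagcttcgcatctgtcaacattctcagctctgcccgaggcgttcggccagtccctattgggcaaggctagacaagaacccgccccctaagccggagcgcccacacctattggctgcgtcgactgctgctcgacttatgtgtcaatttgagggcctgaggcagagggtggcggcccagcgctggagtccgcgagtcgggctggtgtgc
Mnt: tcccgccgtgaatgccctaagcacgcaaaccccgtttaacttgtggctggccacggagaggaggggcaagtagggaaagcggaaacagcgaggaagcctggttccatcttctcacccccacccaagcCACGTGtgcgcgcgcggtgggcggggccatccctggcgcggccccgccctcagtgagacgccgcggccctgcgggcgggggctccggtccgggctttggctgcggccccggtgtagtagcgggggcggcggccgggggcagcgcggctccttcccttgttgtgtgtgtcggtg
These letters were not in the windows of Mycn, Mycl, Mxd1, Mxd3, Mga or the 3 of Mxi1. Of the 3 genes shown, Mxd4 moved opposite to Max and Mnt, as described below by gene.

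Depth ran from 46604397 to 62812641 reads per library over the table, and replicates differed by more than sampling noise (chi-square per degree of freedom 2.77 to 31.31). The deposited log2 values, which are log2 RPM (reads per 1000000 of an effective library size), carried a scaling factor per library between 0.832 and 1.375. Median-ratio factors from the same reads ran from 0.945 to 1.103. On the deposited scale the median of the 14666 genes tested stood at -0.40 against control at 8 h of BMH-21, -0.21 at 4 h and -0.07 at 2 h, and at 0.11, -0.28 and -0.18 for CX-5461. With median-ratio factors these medians lay within 0.02 of 0. Differences below are given on the deposited scale and then with median-ratio factors, which show a gene relative to that library-wide shift. The labelled cell type was checked against 10 embryonic stem cell markers, of which 0 were at 0 reads in any group. Their summed level (RPM) was 6580 to 7505 in the control, 5384 to 5973, 3715 to 4322 and 3071 to 3303 at 2, 4 and 8 h of BMH-21, and 4870 to 5760, 3775 to 4512 and 5904 to 6365 at 2, 4 and 8 h of CX-5461. None of the other lists was at 0 either. All marker values here are on the deposited scale only and carry its library-wide shift. Other lists are given as control, then 2, 4 and 8 h of BMH-21, then 2, 4 and 8 h of CX-5461. The 6 trophoblast markers summed to 78.5 to 85.4, then 59.9 to 71.5, 50.8 to 64.0 and 116 to 141, then 60.1 to 71.4, 45.9 to 56.9 and 119 to 141. On that scale they were below the control at 2 and 4 h and above it at 8 h. The 6 neural markers summed to 63.8 to 69.0, then 76.2 to 88.3, 75.4 to 84.3 and 67.4 to 81.3, then 70.1 to 91.3, 64.1 to 77.0 and 102 to 110. The 8 fibroblast markers summed to 33.9 to 38.2, then 32.4 to 39.6, 46.4 to 56.6 and 42.4 to 50.4, then 32.8 to 37.9, 37.0 to 39.4 and 49.9 to 50.01. The 6 primitive endoderm markers summed to 14.8 to 18.4, then 13.9 to 16.8, 20.8 to 27.1 and 17.3 to 20.8, then 13.3 to 15.9, 16.7 to 21.3 and 18.6 to 19.6. Single genes carried some sums while others went the other way: at 8 h of BMH-21 Tfap2c read log2 6.996, 6.70 and 6.95 beside 6.23, 6.24 and 6.14 in the control, but Eomes read 1.20, 1.13 and 0.92 beside 2.104, 2.35 and 2.07, and Pax6 of the neural list 0.73, 0.10 and -0.18 beside 3.322, 3.44 and 3.03. The part of these marker levels in the results below was not tested, and in bulk libraries fewer cells of a type and less RNA per cell cannot be told apart.

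Against control, Mxd1 and Mxd4 were the members that rose, by up to 2.11 and 2.98 in log2 at 8 h of BMH-21 with median-ratio factors, and Mycl rose at 2 and 4 h of BMH-21. Myc, Mycn, Max, Mxd3, Mxi1, Mnt and Mga were the members that fell in at least 1 comparison on both scales. At 4 h of either compound all 7 of these were lower than control. A call here is a limma adjusted p (Benjamini-Hochberg over the 14666 genes) under 0.05. The members' counts are read against the share of all genes called, since much of the transcriptome moved.

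After 2 h of BMH-21, 3 members had risen (Mycl, Mxd1, Mxd4) and 3 had fallen (Myc, Mycn, Max) on the deposited scale, on which 8.48% of all genes tested rose and 11.2% fell. With median-ratio factors 3 rose and 4 fell, against 20.1% and 15.7% of all genes. After 4 h of BMH-21, 3 rose and 7 fell on either scale, where 22.1% of genes rose and 44.9% fell as deposited, and 35.5% and 37.2% with median-ratio factors. By 8 h of BMH-21, 2 members had risen and 7 had fallen as deposited, against 24.5% and 56.9% of all genes. Median-ratio factors gave 3 and 7 there, Mycl being the added rise, against 40.9% and 41.6%. The members' median log2 difference at 8 h of BMH-21 was -0.88 as deposited, beside -0.40 for all genes, and -0.49 with median-ratio factors, beside -0.01.

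For CX-5461 the 2 h counts were 1 member risen (Mxd1) and 6 fallen as deposited, where 7.45% of genes rose and 20.5% fell. They were 2 and 3 with median-ratio factors, against 19.1% and 12.6%. After 4 h of CX-5461, Mxd1 and Mxd4 rose and 7 members fell on either scale, against 19.8% and 51.2% of genes as deposited and 34.2% and 35% with median-ratio factors. By 8 h of CX-5461 only Mxd1 and Mxd4 (higher) and Myc and Mga (lower) differed from control as deposited, where 35.1% of genes rose and 14.3% fell. With median-ratio factors Mycn and Max were also lower, which made 2 risen and 4 fallen, against 36.4% and 33.7% of genes. The members' shares of calls at 4 h of either compound thus stood above the shares of all genes on the falling side, and no test of that contrast was made.

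**Figure D1:**
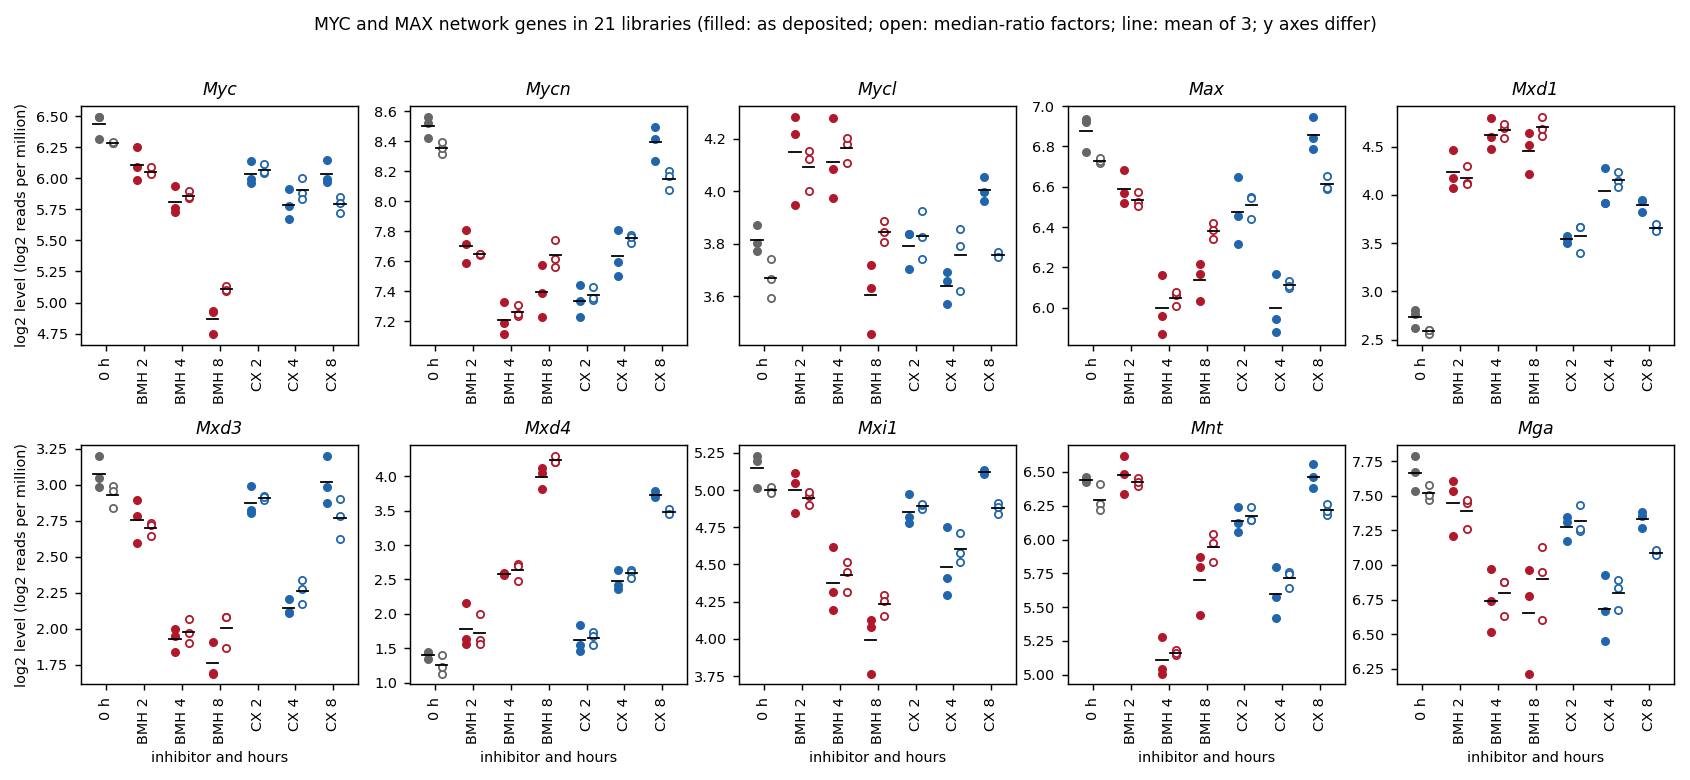
Each panel is 1 gene and each point 1 library: the y axis is the level in log2 RPM (axes differ between panels), the x axis the group, with filled points as deposited, open points with median-ratio factors and a line at the mean of 3. Myc is lowest in the 3 BMH-21 8 h libraries, Mycn is low in all treated groups but CX-5461 8 h, and Mxd1 and Mxd4 are lowest in the control.

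Myc, the founding member (chr15:61985391-61990374, plus strand, GRCm38, GENCODE M21), fell in every treated group and by most at 8 h of BMH-21. Its levels were 6.49, 6.5 and 6.32 in the control, 5.99, 6.25 and 6.09 at 2 h of BMH-21, 5.93, 5.76 and 5.73 at 4 h, and 4.93, 4.75 and 4.93 at 8 h. With CX-5461 they were 6.14, 5.99 and 5.96 at 2 h, 5.78, 5.92 and 5.67 at 4 h, and 6.15, 6.00 and 5.97 at 8 h. No treated library reached the lowest control library, and the BMH-21 8 h libraries stood apart below all others. At that time the difference from control was -1.57 ± 0.11 (SE, n = 3 per group, limma adjusted p = 1.46e-27), a 2.96-fold lower level, or -1.18 ± 0.04 with median-ratio factors (adjusted p = 7.35e-18, 2.26-fold lower). At 2 and 4 h of BMH-21 it was -0.32 and -0.63 (-0.23 and -0.43 with median-ratio factors). For CX-5461 it was -0.40, -0.65 and -0.40 at 2, 4 and 8 h (-0.22, -0.38 and -0.50). As deposited, the order of group means began with control, BMH-21 2 h, CX-5461 8 h and CX-5461 2 h. BMH-21 4 h, CX-5461 4 h and BMH-21 8 h followed. In this order the groups between the control and BMH-21 4 h overlapped in turn, as did the 4 h groups. With median-ratio factors CX-5461 8 h (5.79) came below CX-5461 4 h (5.905) and BMH-21 4 h (5.86), and overlapped the latter. The 2 h call for BMH-21 (adjusted p = 0.0209) was lost on the deposited scale without control replicate 1 (-0.30, 0.102), control replicate 2 (-0.29, 0.106), BMH-21 2 h replicate 1 (-0.26, 0.149) or replicate 3 (-0.32, 0.0738). With median-ratio factors the difference was called on all libraries (-0.23, limma adjusted p = 0.000103). Leaving out libraries was not tried on that scale.

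Mycn, the MYC gene best known from embryonic tissue and the most abundant member per length in these cells (chr12:12936093-12941914, minus strand), fell early with both compounds and came back with CX-5461. The control libraries read 8.52, 8.57 and 8.42. BMH-21 gave 7.59, 7.81 and 7.72 at 2 h, 7.33, 7.12 and 7.19 at 4 h, and 7.58, 7.23 and 7.39 at 8 h. CX-5461 gave 7.44, 7.23 and 7.34 at 2 h, 7.50, 7.81 and 7.59 at 4 h, and 8.49, 8.27 and 8.42 at 8 h. Every library of the other treated groups lay below the control, while the CX-5461 8 h libraries overlapped it on the deposited scale. The fall was -0.80 ± 0.10 at 2 h of BMH-21 (limma adjusted p = 2.20e-10) and -1.17 ± 0.10 at 2 h of CX-5461 (adjusted p = 1.84e-18), or -0.71 and -0.98 with median-ratio factors. At 4 h it was -1.29 for BMH-21 and -0.87 for CX-5461 (-1.09 and -0.60). At 8 h it was -1.11 for BMH-21 (-0.71), and for CX-5461 -0.11 ± 0.10 (adjusted p = 0.4) as deposited, where no call was made, and -0.21 ± 0.04 (adjusted p = 0.000123) with median-ratio factors, where it was. From 4 to 8 h of CX-5461 Mycn rose by 0.76 (0.40 with median-ratio factors). Within-group spread kept the means of BMH-21 2 h, CX-5461 4 h, BMH-21 8 h, CX-5461 2 h and BMH-21 4 h from separating from their next neighbour in order on the deposited scale.

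Mycl, the least abundant MYC gene here (chr4:122995652-123002485, plus strand), went up while Myc and Mycn went down with BMH-21. Levels were 3.87, 3.80 and 3.77 in the control, 3.95, 4.28 and 4.22 at 2 h of BMH-21 and 4.28, 3.97 and 4.08 at 4 h, with all 6 of these treated libraries above all 3 controls. The rise was 0.34 ± 0.12 at 2 h (limma adjusted p = 0.0263) and 0.30 ± 0.12 at 4 h (adjusted p = 0.0188), or 0.43 and 0.50 with median-ratio factors. At 8 h of BMH-21 the libraries read 3.72, 3.456 and 3.63, which is -0.21 ± 0.12 as deposited (adjusted p = 0.0807) and 0.18 ± 0.06 with median-ratio factors (adjusted p = 0.0131), so its direction depended on the scaling. CX-5461 libraries read 3.84, 3.70 and 3.84 at 2 h, 3.57, 3.66 and 3.69 at 4 h, and 4.05, 3.96 and 4.00 at 8 h. Their differences of -0.02, -0.18 and 0.19 at 2, 4 and 8 h (0.16, 0.09 and 0.09 with median-ratio factors) were not called on either scale. The 2 h rise was not called on the deposited scale without control replicate 2 (0.33, adjusted p = 0.0841), control replicate 3 (0.31, 0.0665), BMH-21 2 h replicate 2 (0.27, 0.137) or replicate 3 (0.30, 0.122), nor the 4 h rise without BMH-21 4 h replicate 1 (0.21, 0.116).

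Max, the shared partner of the other members (chr12:76937269-76962201, minus strand), fell with both compounds to its lowest at 4 h. Control libraries were at 6.92, 6.94 and 6.77, BMH-21 libraries at 6.52, 6.68 and 6.57 (2 h), 6.16, 5.87 and 5.96 (4 h) and 6.22, 6.03 and 6.17 (8 h), and CX-5461 libraries at 6.65, 6.32 and 6.46, 5.88, 6.17 and 5.94, and 6.95, 6.79 and 6.84. As deposited, all but the CX-5461 8 h group were below every control library, and with median-ratio factors that group was too. At 4 h the 2 compounds gave -0.88 ± 0.11 each (limma adjusted p = 1.70e-12 for BMH-21 and 2.08e-12 for CX-5461), or -0.68 and -0.62 with median-ratio factors. At 8 h Max was at -0.74 with BMH-21 (-0.35) and at -0.02 with CX-5461 (adjusted p = 0.902), the latter -0.12 ± 0.04 (adjusted p = 0.00728) with median-ratio factors. The 2 h differences were -0.29 for BMH-21 and -0.40 for CX-5461 (-0.20 and -0.22). The former (adjusted p = 0.0458) was not called as deposited without control replicate 1 (-0.26, 0.161), control replicate 2 (-0.26, 0.176), BMH-21 2 h replicate 1 (-0.25, 0.17) or replicate 3 (-0.27, 0.135).

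Among the MXD genes, Mxd1, whose product represses MYC sites as cells leave the cycle (chr6:86647042-86669161, minus strand), rose in every treated group. It read 2.76, 2.81 and 2.63 in the control. With BMH-21 it read 4.07, 4.46 and 4.17 at 2 h, 4.79, 4.6 and 4.47 at 4 h, and 4.51, 4.22 and 4.64 at 8 h. With CX-5461 it read 3.5, 3.55 and 3.58, then 3.92, 4.27 and 3.92, then 3.93, 3.82 and 3.94. Every treated library was above all 3 controls, and at each time every BMH-21 library was above every CX-5461 library. The rise at 2 h was 1.5 ± 0.12 for BMH-21 (2.83-fold, limma adjusted p = 7.21e-22) and 0.81 ± 0.12 for CX-5461 (1.75-fold, adjusted p = 1.42e-08), or 1.59 and 0.99 with median-ratio factors. At 4 h it was 1.89 and 1.3 (2.09 and 1.57) and at 8 h 1.72 and 1.16 (2.11 and 1.07). In order of means as deposited, BMH-21 4 h, BMH-21 8 h, BMH-21 2 h, CX-5461 4 h and CX-5461 8 h each overlapped the next. CX-5461 2 h and control followed. With median-ratio factors BMH-21 8 h (4.70) came above BMH-21 4 h (4.67), and the latter stood apart from BMH-21 2 h (4.18).

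Mxd4, the member with the fewest reads (chr5:34173883-34187720, minus strand), rose later and further. Its levels were 1.34, 1.44 and 1.44 in the control, 1.56, 2.15 and 1.63 at 2 h of BMH-21, 2.57, 2.59 and 2.58 at 4 h and 4.04, 3.82 and 4.12 at 8 h. For CX-5461 they were 1.84, 1.55 and 1.46 at 2 h, 2.42, 2.64 and 2.36 at 4 h, and 3.78, 3.72 and 3.69 at 8 h. Each treated library exceeded each control, and the 2, 4 and 8 h groups of a compound did not overlap. At 8 h the rise was 2.59 ± 0.14 with BMH-21 (6.00-fold, limma adjusted p = 3.09e-37) and 2.32 ± 0.14 with CX-5461 (5.01-fold, adjusted p = 9.88e-33), or 2.98 and 2.23 with median-ratio factors. At 4 h it was 1.17 and 1.07 (1.37 and 1.33). The 2 h differences were 0.37 ± 0.14 (adjusted p = 0.0382) and 0.21 ± 0.14 (adjusted p = 0.218), of which the second was called with median-ratio factors (0.40, adjusted p = 0.00322). The 2 h call for BMH-21 leaned on BMH-21 2 h replicate 2, without which it was 0.19 (0.399), and was also lost without control replicate 1 (0.34, 0.139), replicate 2 (0.39, 0.0748) or replicate 3 (0.39, 0.0556). An exon of Gm42846 on the opposite strand shares 514 bases with Mxd4 (6.06% of its exonic length), and whether the counting used strand is not given in the sources used here.

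Mxd3 (chr13:55325168-55329823, minus strand), an MXD gene known from dividing cells, and Mxi1 (chr19:53310518-53375810, plus strand), also called Mxd2, moved the other way. Mxd3 read 3.2, 3.05 and 2.98 in the control, 2.59, 2.90 and 2.78 at 2 h of BMH-21, 2.00, 1.84 and 1.95 at 4 h of BMH-21, 1.91, 1.69 and 1.69 at 8 h, 2.99, 2.80 and 2.82 at 2 h of CX-5461, 2.11, 2.21 and 2.11 at 4 h, and 3.2, 2.98 and 2.87 at 8 h. The CX-5461 2 h and 8 h libraries overlapped the control and the other groups did not. BMH-21 gave -1.15 ± 0.13 at 4 h and -1.31 ± 0.13 at 8 h (limma adjusted p = 1.47e-13 and 1.05e-16) and CX-5461 gave -0.93 ± 0.13 at 4 h (adjusted p = 6.84e-10), or -0.95, -0.92 and -0.67 with median-ratio factors. The 2 h values of -0.32 (BMH-21) and -0.20 (CX-5461) were not called as deposited, nor was -0.06 at 8 h of CX-5461 (adjusted p = 0.737). The BMH-21 2 h difference was called with median-ratio factors (-0.23, adjusted p = 0.0338). Prelid1 overlaps 105 bases of Mxd3 on the opposite strand.

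Mxi1 read 5.23, 5.20 and 5.01 in the control, 4.84, 5.12 and 5.05 at 2 h, 4.62, 4.31 and 4.2 at 4 h and 4.12, 3.77 and 4.08 at 8 h of BMH-21, and 4.97, 4.78 and 4.82, 4.30, 4.75 and 4.41, and 5.13, 5.11 and 5.14 at 2, 4 and 8 h of CX-5461. Only BMH-21 2 h and CX-5461 8 h overlapped the control on the deposited scale. It fell by 0.77 and 1.16 on the log2 scale at 4 and 8 h of BMH-21 (limma adjusted p = 3.51e-09 and 6.23e-17) and by 0.66 at 4 h of CX-5461 (adjusted p = 3.14e-07). With median-ratio factors the same differences were -0.57, -0.76 and -0.40. At 8 h of CX-5461 it stood at -0.02 as deposited (adjusted p = 0.894), inside the control range. With median-ratio factors its 3 libraries there (4.84 to 4.91) lay below the control range (4.98 to 5.02), though the difference was not called. The small 2 h difference with CX-5461 (-0.29, adjusted p = 0.0492) was not called with median-ratio factors (-0.10, 0.161), nor as deposited without control replicate 1 (-0.25, 0.188), replicate 2 (-0.26, 0.163), CX-5461 2 h replicate 2 (-0.25, 0.196) or replicate 3 (-0.27, 0.144). Gm10197 overlaps 194 bases of Mxi1 on the opposite strand.

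**Figure D2:**
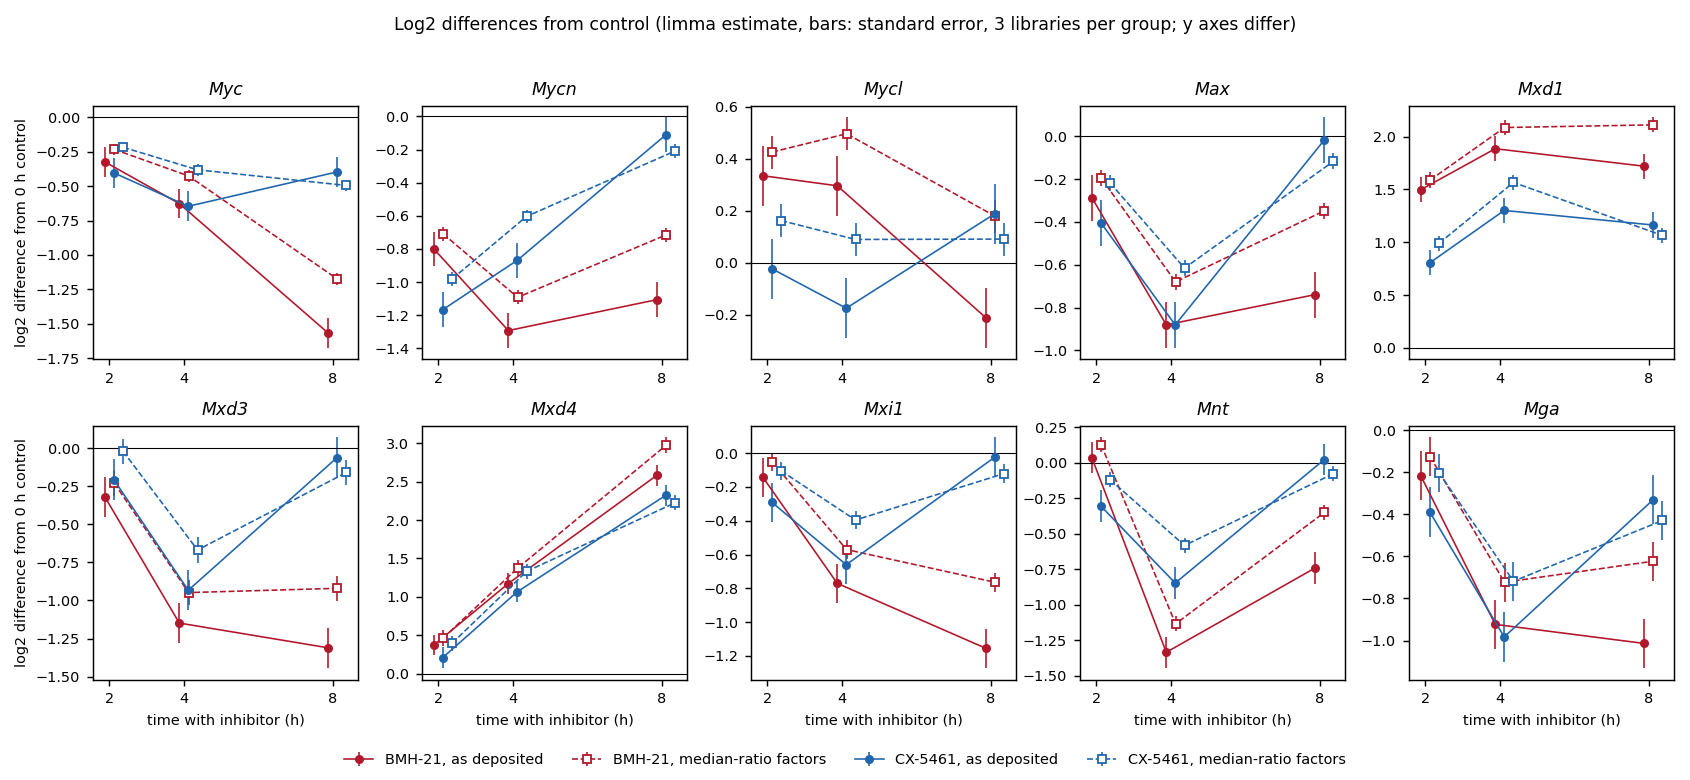
Each panel is 1 gene: the y axis is the log2 difference from the 0 h control (limma estimate, bars for the SE, 3 libraries per group, axes differ between panels) and the x axis the hours with BMH-21 (red) or CX-5461 (blue), with filled points as deposited and open points with median-ratio factors. Mxd1 and Mxd4 stay above 0 throughout, Myc falls furthest at 8 h of BMH-21 (-1.57 as deposited), and Mycn, Max, Mxd3, Mxi1 and Mnt return toward 0 between 4 and 8 h of CX-5461.

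Mnt, a broadly expressed MAX partner that opposes MYC (chr11:74830920-74845725, plus strand), was lowest at 4 h of either compound. At 8 h it had partly returned with BMH-21 and overlapped the control with CX-5461. The control libraries read 6.47, 6.43 and 6.44. BMH-21 libraries read 6.34, 6.62 and 6.49 at 2 h, 5.28, 5.01 and 5.04 at 4 h, and 5.87, 5.44 and 5.80 at 8 h. CX-5461 libraries read 6.24, 6.12 and 6.06, then 5.42, 5.79 and 5.58, then 6.56, 6.38 and 6.46. The BMH-21 2 h and CX-5461 8 h groups overlapped the control, and all the others were below it on the deposited scale. At 4 h Mnt was at -1.33 ± 0.11 with BMH-21 (2.52-fold lower, limma adjusted p = 1.45e-21) and at -0.85 ± 0.11 with CX-5461 (1.80-fold lower, adjusted p = 3.18e-11), or -1.13 and -0.58 with median-ratio factors. At 8 h of BMH-21 it was at -0.74 (-0.35). The 8 h difference with CX-5461 was 0.02 as deposited and -0.08 with median-ratio factors, not called on either. At 2 h of CX-5461 it was -0.30 (adjusted p = 0.0308), not called with median-ratio factors (-0.12, 0.0914) nor as deposited without control replicate 1 (-0.29, 0.101), replicate 2 (-0.31, 0.0758), CX-5461 2 h replicate 2 (-0.29, 0.0994) or replicate 3 (-0.26, 0.143).

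Mga, which encodes a protein with both a T-box and a MAX-binding domain (chr2:119897228-119969581, plus strand), fell with both compounds at 4 and 8 h. It read 7.67, 7.79 and 7.54 in the control, 7.21, 7.61 and 7.53 at 2 h, 6.97, 6.74 and 6.51 at 4 h and 6.96, 6.21 and 6.78 at 8 h of BMH-21, and 7.35, 7.31 and 7.17, 6.45, 6.93 and 6.67, and 7.38, 7.27 and 7.35 at 2, 4 and 8 h of CX-5461. As deposited, only the BMH-21 2 h group overlapped the control, and its difference of -0.22 was not called. At 4 h BMH-21 gave -0.92 ± 0.12 (limma adjusted p = 7.38e-12) and CX-5461 -0.98 ± 0.12 (6.52e-13), or -0.72 for each compound with median-ratio factors. At 8 h they were -1.01 (-0.62) and -0.33 (-0.43). Mga had the widest spread between replicates of the 10 members (own SD 0.219 against the moderated 0.143 used for its p-values as deposited). The own SD was also above the moderated one for Mxd1 (0.157 against 0.146), Mxi1 (0.163 against 0.142) and Mnt (0.144 against 0.136), so the deposited-scale p-values of these 4 members are smaller than their own spread would give. The deposited-scale p-values of all 10 members also rest on 111.5 prior degrees of freedom beside 14 residual. For the same ratio of difference to SE, more degrees of freedom give a smaller p-value. Those of the other members can therefore also be smaller than their own spread would give. None of these p-values measures a member's own spread alone. The CX-5461 8 h call (adjusted p = 0.0133) was lost as deposited without control replicate 2 (-0.27, 0.0851) or CX-5461 8 h replicate 2 (-0.30, 0.0548). The CX-5461 2 h call (-0.39, adjusted p = 0.00787) was lost without control replicate 2 (-0.33, 0.0717) or CX-5461 2 h replicate 3 (-0.34, 0.0571) and with median-ratio factors (-0.20, 0.101).

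Set directly against each other, the compounds differed most at 8 h, when 9 members differed as deposited, 1 higher with BMH-21 and 8 lower, where 12% of all genes were higher and 67.2% lower. With median-ratio factors 2 were higher (Mxd1, Mxd4) and 6 lower (Myc, Mycn, Max, Mxd3, Mxi1, Mnt), against 35.9% and 35% of genes. At 8 h the log2 level of Myc with BMH-21 minus that with CX-5461 was -1.17 ± 0.11 (limma adjusted p = 2.06e-18), or -0.68 with median-ratio factors. Mycn stood at -0.996 (-0.51), Mxd3 at -1.25 (-0.76), Mxi1 at -1.13 (-0.64), Mnt at -0.76 (-0.27) and Max at -0.72 (-0.23). Mxd1 was higher with BMH-21 by 0.56 ± 0.12 (adjusted p = 1.51e-05), or by 1.05 with median-ratio factors. Mycl and Mga were lower as deposited (-0.40 and -0.68) but not called with median-ratio factors (0.09 and -0.19). Mxd4 differed by 0.26 ± 0.14 as deposited (adjusted p = 0.0726) and by 0.75 ± 0.10 with median-ratio factors (adjusted p = 4.98e-07), and was called as deposited without BMH-21 8 h replicate 2 (0.35, 0.0279).

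At 2 h, 2 members were higher with BMH-21 than with CX-5461 and 0 lower as deposited, where 2.47% of genes were higher and 1.52% lower, and 4 and 0 with median-ratio factors, against 5.79% and 9.19%. Mxd1 was higher by 0.69 ± 0.12 (limma adjusted p = 1.06e-05) and Mycn by 0.37 ± 0.10 (adjusted p = 0.0227), or 0.60 and 0.27 with median-ratio factors, and the latter scaling added Mycl (0.26) and Mnt (0.25). The Mycn call was lost as deposited without BMH-21 2 h replicate 2 (0.31, 0.179), replicate 3 (0.36, 0.0976), CX-5461 2 h replicate 2 (0.31, 0.185) or replicate 3 (0.37, 0.0881). With median-ratio factors Mycn was called on all libraries (limma adjusted p = 6.52e-05), and leaving out libraries was not tried there. Without BMH-21 2 h replicate 1, Mycl (0.46, 0.0163) and Mnt (0.41, 0.026) were also called as deposited. At 4 h, Mxd1 (0.58) and Mycl (0.47) were higher and Mycn (-0.42) and Mnt (-0.49) lower with BMH-21, 2 and 2 of the members, where 9.35% of genes were higher and 8.49% lower. With median-ratio factors the count was 2 and 4, Mxd3 (-0.28) and Mxi1 (-0.17) being added, against 18.1% and 23.8% of genes. Myc and Max did not differ detectably between the compounds at 2 or 4 h, with differences of at most 0.12 ± 0.11.

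Between 4 and 8 h of CX-5461, 9 members rose and 0 fell as deposited, where 58.8% of genes rose and 4.85% fell. With median-ratio factors 7 rose and 2 fell (Myc, -0.11, and Mxd1, -0.50), against 26.7% and 30.7% of genes. Myc rose by 0.25 ± 0.11 as deposited (limma adjusted p = 0.0367), so its direction turned with the scaling, and that rise was not called without CX-5461 4 h replicate 1 (0.24, 0.083), replicate 3 (0.19, 0.186), CX-5461 8 h replicate 1 (0.20, 0.175) or replicate 2 (0.27, 0.0512). Mycn, Max, Mxd3, Mxd4, Mxi1, Mnt and Mga rose on both scales, by 0.76, 0.86, 0.87, 1.26, 0.64, 0.87 and 0.65 as deposited and by 0.40, 0.50, 0.51, 0.90, 0.28, 0.51 and 0.29 with median-ratio factors. Mycl rose by 0.36 as deposited and differed by 0.00 with median-ratio factors (adjusted p = 0.987).

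Over the same hours of BMH-21, 2 members rose and 3 fell as deposited, where 18.6% of genes rose and 37.8% fell, and 4 rose and 3 fell with median-ratio factors, against 38.1% and 31.2%. Myc fell further, by 0.94 on the log2 scale (limma adjusted p = 3.76e-13; -0.75 with median-ratio factors), with Mycl (-0.51, -0.32) and Mxi1 (-0.39, -0.19). The Mxi1 call was lost as deposited without BMH-21 4 h replicate 1 (-0.26, 0.0634). Mxd4 rose by 1.41 and Mnt by 0.59 (1.6 and 0.79). Mycn and Max rose with median-ratio factors (0.38 and 0.33), while their 0.19 and 0.14 as deposited were not called. Mycn was called as deposited without BMH-21 8 h replicate 2 (0.27, 0.0314).

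Comparisons of members within a library do not depend on any library-wide scaling. The levels per kilobase given next, and their SDs, do carry the deposited factors, so they are read between members of a group. Per kilobase of exon (GENCODE M21 union of exons, with isoform use unknown), the control held Mycn at 110 ± 5.51 RPM per kilobase (SD, n = 3), Max at 32.7 ± 2.01, Myc at 31.9 ± 2.16, Mnt at 18.8 ± 0.264, Mga at 13.3 ± 1.15, Mxi1 at 5.20 ± 0.414, Mxd3 at 3.56 ± 0.274, Mycl at 3.48 ± 0.123, Mxd1 at 0.941 ± 0.0624 and Mxd4 at 0.311 ± 0.0126. As group means, Max and Myc lay within their SDs between libraries of each other, as did Mxd3 and Mycl. Those SDs do not give the order of 2 members inside each library. By 8 h of BMH-21 Mxd1 stood at 3.12 ± 0.451, above Mxi1 (2.34 ± 0.304), Mxd4 (1.88 ± 0.197) and Mxd3 (1.44 ± 0.128), and Myc at 10.8 ± 0.757 was level with Mnt at 11.4 ± 1.72.

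Mycn made up 75.7% ± 0.404 of MYC family transcripts per length in the control, Myc 21.9% ± 0.411 and Mycl 2.40% ± 0.103 (SD, n = 3). These family shares were chosen after values had been seen and were not tested. The share of Mycn fell to 68.0% and 64.4% at 2 and 4 h of BMH-21 and stood at 78.8% ± 1.03 at 8 h, and with CX-5461 it went through 64.1% and 72.0% to 78.4%. For Myc the BMH-21 shares were 27.3%, 29.5% and 16.6% and the CX-5461 shares 31.4%, 24.3% and 18.6%, so the balance within the family first moved to Myc and then away from it with both. Every treated group was apart from the control range in these 2 shares. The log2 level of Mycn minus that of Myc in the same library was 2.07 in the control, 1.59, 1.40 and 2.53 over the BMH-21 times and 1.31, 1.85 and 2.36 over those of CX-5461.

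Within the MXD family, Mxi1 held 51.9% ± 0.884 and Mxd3 35.6% ± 1.14 of control transcripts per length, Mxd1 9.40% ± 0.350 and Mxd4 3.12% ± 0.323. By 8 h of BMH-21 Mxd1 held 35.5% ± 1.66, Mxd4 21.4% ± 0.527, Mxi1 26.6% and Mxd3 16.4%. By 8 h of CX-5461 Mxd1 held 17.3% ± 0.817 and Mxd4 12.8% ± 0.200, with Mxi1 at 41.9% and Mxd3 at 28.0%. The family as a whole stood at 0.0687 of the MYC family per length in the control, at 0.114, 0.127 and 0.135 with BMH-21 and at 0.122, 0.0969 and 0.0937 with CX-5461, with no treated library inside the control range. Mxd1 minus Myc moved from -3.70 in the control to -1.88, -1.19 and -0.41 with BMH-21 and to -2.49, -1.75 and -2.14 with CX-5461. Mnt minus Myc was 0.01 in the control, 0.37, -0.70 and 0.84 over the BMH-21 times and 0.11, -0.19 and 0.43 over those of CX-5461, so the 4 h groups were on the other side of the control from the 8 h groups. Mga minus Max was 0.79 in the control and 0.51 and 0.48 at 8 h of BMH-21 and CX-5461, with the groups at 2 and 4 h overlapping the control. The BMH-21 8 h libraries were spread widely, at 0.749, 0.181 and 0.611, the first just under the lowest control library (0.753).

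**Figure D3:**
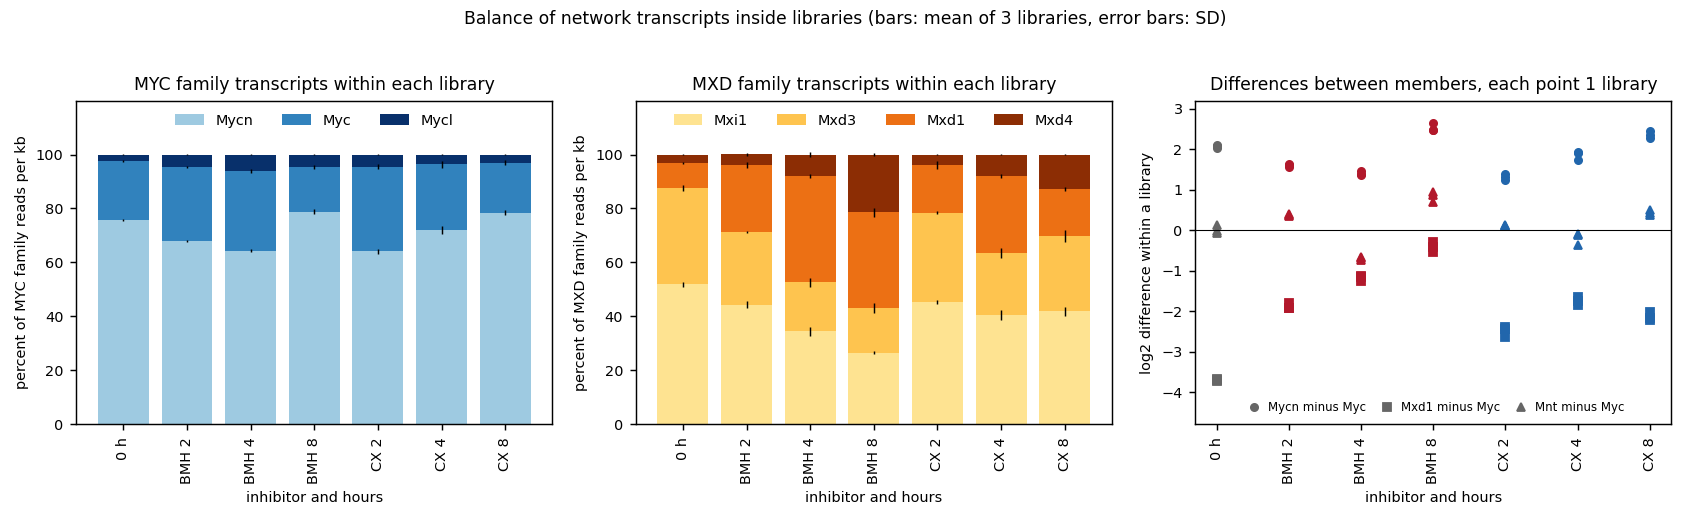
The 2 bar panels give the percent of MYC family and MXD family reads per kilobase taken by each gene (mean of 3 libraries, error bars SD) in the 7 groups, and the right panel gives log2 differences between members inside each library, 1 point per library. Mycn holds 75.7% of the MYC family in the control and 78.8% at 8 h of BMH-21, Mxd1 and Mxd4 hold more of the MXD family at 8 h of either compound than in the control, and Mxd1 minus Myc goes from -3.70 in the control to -1.88, -1.19 and -0.41 at 2, 4 and 8 h of BMH-21 but to -2.49, -1.75 and back to -2.14 for CX-5461.

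Genes whose pattern over the 21 libraries was most like that of a member were ranked by Pearson's r after centring each library on its median, among 13683 genes. These are descriptions, and the 21 points share libraries and groups. For Myc they were 2410137M14Rik (r = 0.987), Coro1b (0.987) and Slc7a3 (0.983). For Mycn they were Zfp217 (0.951), Spry2 (0.939) and Klf2 (0.936), and for Mycl H2-K1 (0.904), Usp38 (0.901) and Mylip (0.897). Max was closest to Sephs2 (0.991), Pawr (0.984) and Nde1 (0.980). Mxd1 was closest to Itih3 (0.977), Rasl11a (0.968) and Btg1 (0.968), and Mxd4 to Mvp (0.989), Rcan1 (0.988) and Col22a1 (0.985). Mxd3 headed with Tex264 (0.982), Mxi1 with Sema4a (0.986), Mnt with Hs6st1 (0.970) and Mga with Pum2 (0.983). No member was among the 3 nearest of another.

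Around the network, 6 lists of pathway genes were described by counts and medians. In the MLX branch, a glucose-sensing pathway that runs through MLX dimers, Mlxipl rose and Mlx and Mlxip fell at 8 h of BMH-21. Mlxipl was at 0.99 ± 0.12 (limma adjusted p = 9.97e-13), Mlx at -0.95 and Mlxip at -0.65, or 1.38, -0.56 and -0.26 with median-ratio factors. With CX-5461 Mlxipl was at 1.22 (1.12) at 8 h, while Mlx (-0.10) and Mlxip (-0.15) were called with median-ratio factors only (-0.20 and -0.24).

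Counts of called list genes are set beside the shares of all genes called in the same comparison, as given above for the members. Of 18 MYC cofactor and turnover genes, 3 rose and 13 fell at 8 h of BMH-21 as deposited (median -0.55, beside -0.40 for all genes) and 5 and 10 with median-ratio factors (median -0.16, beside -0.01). That is 16.7% higher and 72.2% lower where 24.5% and 56.9% of all genes were, or 27.8% and 55.6% against 40.9% and 41.6% with median-ratio factors. CX-5461 at 8 h gave 2 rises and 5 falls, 11.1% and 27.8% against 35.1% and 14.3% of all genes (median -0.12, beside 0.11), and 3 and 12 with median-ratio factors, 16.7% and 66.7% against 36.4% and 33.7% (median -0.22, beside 0.01). Fbxw7, the ubiquitin ligase adaptor that marks MYC proteins for degradation, rose by 1.33, 2.37 and 1.63 at 2, 4 and 8 h of BMH-21 (limma adjusted p = 8.69e-21, 1.90e-42 and 2.54e-28) and by 1.16, 1.66 and 0.94 with CX-5461. Usp28, a deubiquitinase that counters it, fell by 0.35, 1.14 and 1.72 on the log2 scale over the BMH-21 times, and by 0.43, 1.09 and 0.50 over those of CX-5461. With median-ratio factors at 8 h, Fbxw7 stood at 2.02 and 0.84 and Usp28 at -1.33 and -0.60 for BMH-21 and CX-5461. Bin1, a MYC-interacting adaptor, rose by 2.07 at 8 h of BMH-21 and 1.71 at 8 h of CX-5461 (2.47 and 1.61), and Wdr5, a chromatin cofactor of MYC, fell by 1.51 and 0.56 on the log2 scale (-1.11 and -0.66 with median-ratio factors).

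The corepressor list of MXD and MNT (10 genes of SIN3 and histone deacetylase complexes) had 0 rises and 8 falls at 8 h of BMH-21 as deposited, so 80% fell where 56.9% of all genes did, with a median of -0.77 beside -0.40 for all genes. With median-ratio factors it had 2 rises and 8 falls, 20% and 80% against 40.9% and 41.6%, with a median of -0.38 beside -0.01. Sin3a, the scaffold, was at -1.37 (-0.98) and Sap30 at -1.09 (-0.70). At 8 h of CX-5461 the list had 1 rise and 3 falls, 10% and 30% against 35.1% and 14.3% of all genes (1 and 8 with median-ratio factors, 10% and 80% against 36.4% and 33.7%), with Sin3a at -0.26 (adjusted p = 0.0337). That Sin3a call was lost without any 1 of 5 of the 6 libraries: control replicate 1 (-0.24, 0.111), control replicate 2 (-0.23, 0.114), and CX-5461 8 h replicates 1 (-0.28, 0.0524), 2 (-0.27, 0.0677) and 3 (-0.24, 0.105).

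The 11 PRC1.6 partners of MGA and MAX had 0 rises and 10 falls at 8 h of BMH-21 (1 and 9 with median-ratio factors), with medians of -0.855 and -0.46 beside -0.40 and -0.01 for all genes. So 90.9% fell where 56.9% of all genes did, or 81.8% against 41.6% with median-ratio factors. Cbx3 and Cbx1, heterochromatin proteins, were at -1.98 and -1.85 (-1.58 and -1.46). Both have processed pseudogene copies that could share their reads, so these values are less certain. At 8 h of CX-5461 the list had 1 rise and 4 falls (0 and 7), and 36.4% fell where 14.3% of all genes did (63.6% against 33.7%). The 12 germline genes known to be repressed by this complex in embryonic stem cells all passed the filter, so they were not silent in all libraries. Exons on the opposite strand share 52.2% of the exonic length of Sycp3 and 36.7% of that of Tdrkh. Of the 12 genes, 3 rose and 8 fell at 8 h of BMH-21 (4 and 6 with median-ratio factors). At 8 h of CX-5461, 2 rose and 5 fell (2 and 7). At 8 h of BMH-21 that is 25% higher and 66.7% lower where 24.5% and 56.9% of all genes were (33.3% and 50% against 40.9% and 41.6% with median-ratio factors), which is near the background. For CX-5461 it is 16.7% and 41.7% where 35.1% and 14.3% were (16.7% and 58.3% against 36.4% and 33.7%). Taf7l rose by 0.89 and Hormad1 by 0.78 at 8 h of BMH-21 (1.28 and 1.17), while Mael was at -1.65 and Stk31 at -1.24 (-1.26 and -0.85). Hormad1 was at 0.62 and Mael at -0.96 at 8 h of CX-5461. Taf7l (0.43, adjusted p = 0.0166) was not called there without control replicate 3 (0.26, 0.201), CX-5461 8 h replicate 1 (0.34, 0.107) or replicate 2 (0.40, 0.0599), and Stk31 (-0.32, adjusted p = 0.0339) not without control replicate 1 (-0.28, 0.112), replicate 2 (-0.26, 0.145) or CX-5461 8 h replicate 2 (-0.25, 0.159).

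Of 32 textbook MYC target genes, 1 rose and 4 fell at 2 h of BMH-21, 2 and 22 at 4 h, and 2 and 29 at 8 h (3 and 26 with median-ratio factors). The list's median at these times was -0.07, -0.36 and -1.17, beside -0.07, -0.21 and -0.40 for all genes, or 0.02, -0.16 and -0.78 with median-ratio factors, beside 0.02, -0.01 and -0.01. Of the list 12.5%, 68.8% and 90.6% fell, where 11.2%, 44.9% and 56.9% of all genes did, so the 2 h share was near the background. With CX-5461 the counts were 0 and 7, 2 and 27, and 3 and 22 (3 and 26 at 8 h with median-ratio factors), and the medians -0.17, -0.50 and -0.38 beside -0.18, -0.28 and 0.11 for all genes (0.01, -0.235 and -0.48 with median-ratio factors, beside 0.01, -0.01 and 0.01). The falling shares were 21.9%, 84.4% and 68.8%, where 20.5%, 51.2% and 14.3% of all genes fell, again near the background at 2 h. With median-ratio factors 81.25% of the list fell at 8 h of each compound, against 41.6% of all genes for BMH-21 and 33.7% for CX-5461. At 2 h of either compound the list's medians lay within 0.02 of those of all genes. Whether the list followed the levels of any member was not tested. Ubtf, which encodes a factor of RNA polymerase I transcription, was at -2.16 at 8 h of BMH-21 and -0.45 at 8 h of CX-5461 (-1.77 and -0.55). Ccnd2, a cyclin, was at -2.46 with BMH-21 (-2.07) and at 0.03 with CX-5461 (adjusted p = 0.84; -0.06 with median-ratio factors). Tert, the telomerase protein, and Cad, of pyrimidine synthesis, rose at 8 h of BMH-21, by 0.66 and 0.53 (1.05 and 0.92), and at 8 h of CX-5461, by 0.63 and 0.59 (0.53 and 0.49).

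**Figure D4:**
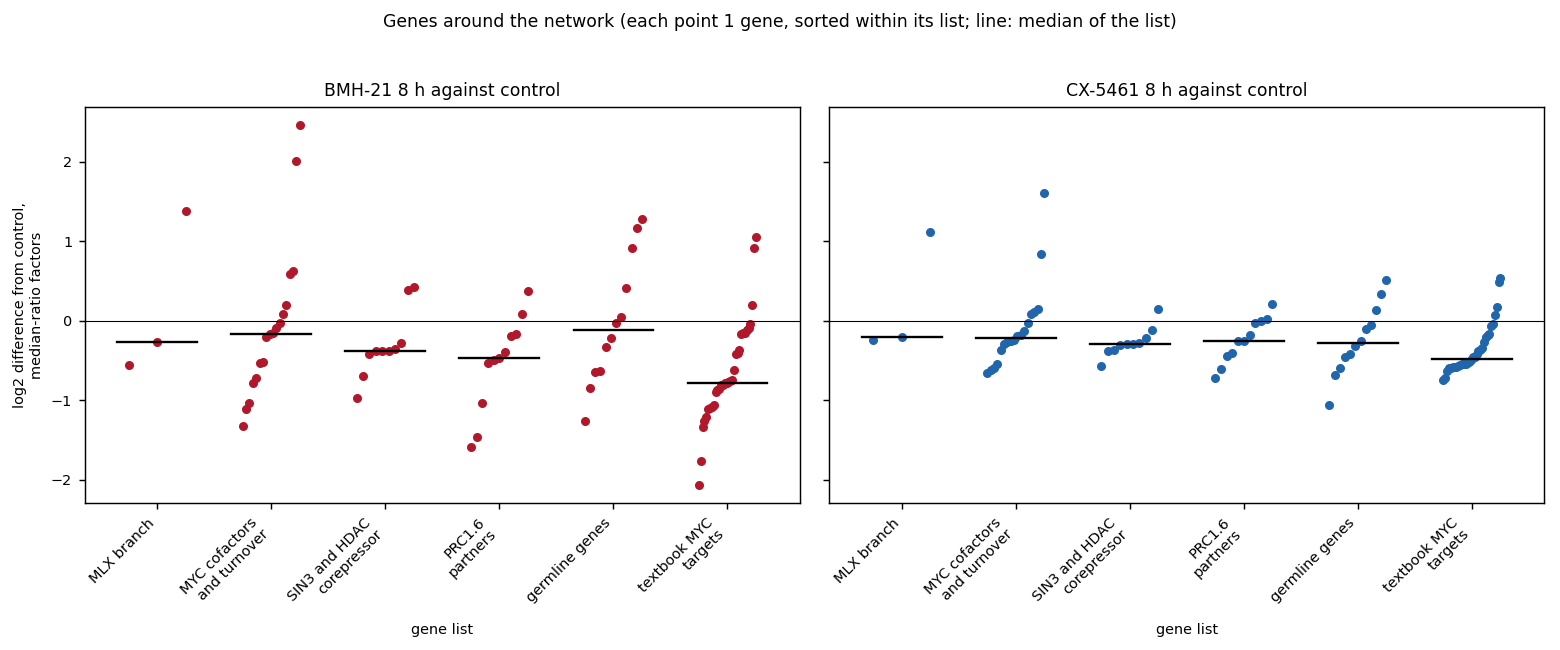
Each point is 1 gene of a list, sorted within its list: the y axis is the log2 difference from control with median-ratio factors, in the left panel at 8 h of BMH-21 and in the right at 8 h of CX-5461, with a line at the list's median. The textbook MYC targets have medians of -0.78 and -0.48, and the highest points of the cofactor list are Bin1 and Fbxw7.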

How the data were processed

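The deposited table holds log2 values, in RPM (reads per 1000000) with an offset of 0.5 reads and a scaling factor per library, 1 column per library. Per the submitters' processing notes, mm10, Trim Galore 0.5.0, TopHat2 2.1.1, R 4.0.5, DESeq2 1.30.1, edgeR 3.32.1 and limma 3.46.0 were used. Counting, annotation, strand setting and the origin of the factors are not given in the sources used here. Whole reads were recovered to within 1.7e-08 reads. Genes with log2 above 0 in at least 3 of 21 libraries were tested (14666; 6234 set aside). Group means of the deposited log2 values were fitted in limma 3.58.1 (R 4.3.3) with a variance trend over all 7 groups, two-sided, with Benjamini-Hochberg adjustment and a threshold of 0.05, and refitted with median-ratio factors. Deposited-scale variances were pooled strongly (prior degrees of freedom 111.5, beside 14 residual). Members and lists were chosen with earlier results of these data known. Named list genes are the 2 with the largest called, non-overlapping differences per direction at 8 h of BMH-21. Marker levels are sums in RPM.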

Additional observations from a re-analysis of the deposited data

Results flagged for a closer look

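The 2 compounds differed from each other for these members by the direct limma test of BMH-21 minus CX-5461 (log2, deposited scale, adjusted p under 0.05). At 2 h the differences were 0.37 for Mycn and 0.69 for Mxd1. At 4 h they were -0.42 for Mycn, 0.47 for Mycl, 0.58 for Mxd1 and -0.49 for Mnt. At 8 h they were -1.17 for Myc, -0.996 for Mycn, -0.40 for Mycl, -0.72 for Max, 0.56 for Mxd1, -1.25 for Mxd3, -1.13 for Mxi1, -0.76 for Mnt and -0.68 for Mga. Mycn thus stood higher with BMH-21 at 2 h and lower at 4 and 8 h, and Mxd1 stood higher with BMH-21 at all 3 times. With median-ratio factors the 8 h differences of Mycl (0.09) and Mga (-0.19) were not called.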

How the results depend on the processing

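The main scale was the deposited one. Of 110 member differences, median centring reversed 7 and added 13 calls, and median-ratio factors reversed 13, added 12 and lost 5, while an offset of 5 reads changed no call and leaving out the filter lost 5. Reversed with centring: Myc CX-5461 8 h against 4 h (-0.12), Mycl at 2 h (0.12) and 8 h (-0.027) of CX-5461, between compounds at 8 h (0.025) and CX-5461 8 h against 4 h (-0.0093), Max between compounds at 4 h (-0.0089), Mnt (-0.19) and Ccnd2 (-0.18) at 8 h of CX-5461. Reversed with median-ratio factors: Myc between compounds at 2 h (-0.015) and 4 h (-0.045) and CX-5461 8 h against 4 h (-0.11), Mycl at 8 h of BMH-21 (0.18), 2 h (0.16) and 4 h (0.089) of CX-5461 and between compounds at 8 h (0.087), Max (-0.064) and Mga (-0.0045) between compounds at 4 h, Mxd1 (0.025), Mxd3 (0.028) and Mga (0.10) BMH-21 8 h against 4 h, Mnt (-0.076) and Ccnd2 (-0.064) at 8 h of CX-5461. Genes called at 2 h of BMH-21 went from 2891 to 5285 with centring and 5256 with median-ratio factors, between compounds at 2 h from 585 to 2261 and 2197, and at 4 h from 2617 to 6719 and 6151. Members called at 8 h of CX-5461 went from 4 to 9 with centring, and between compounds at 2 h from 2 to 4 with either and 1 without the filter. The cause was not tested. Leaving out 1 library at a time gave 361 to 653 genes between compounds at 2 h, 1687 to 2931 at 4 h and 2370 to 5592 at 2 h of CX-5461 (main 4096), with 2 to 4 members at 2 h of BMH-21, 4 to 7 at 2 h of CX-5461 and 1 to 4 between compounds at 2 h. Differences that crossed 0 then, none of them called on all libraries, were Myc (-0.044 to 0.084), Max (-0.083 to 0.086), Mxi1 (-0.23 to 0.022) and Mga (-0.055 to 0.18) between compounds at 4 h, Mxd4 between compounds at 2 h (-0.023 to 0.27), Mycl at 2 h of CX-5461 (-0.047 to 0.022), Max (-0.071 to 0.017), Mxd3 (-0.15 to 0.013), Mxi1 (-0.0895 to 0.019) and Mnt (-0.023 to 0.066) at 8 h of CX-5461, Mnt at 2 h of BMH-21 (-0.031 to 0.11) and Mga BMH-21 8 h against 4 h (-0.25 to 0.13). No pairing by replicate number was seen: same-numbered deviations correlated at -0.25 to 0.11 (median 0.0), with 0 of 21 group pairs above 0.1 in all 3. Such correlations cannot show that the samples were unpaired. With the replicate block, members called were 5 of 10 at 2 h of BMH-21 and 6 at 2 h of CX-5461, other member counts were unchanged, and genes called ranged from 532 (between compounds at 2 h) to 11868 (8 h of BMH-21). With 3 libraries a group, SEs of 0.10 to 0.14 on the deposited scale limited which small differences could be called.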

Other observations

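Pvt1, the long noncoding gene downstream of Myc (chr15:62037986-62378096, plus strand, GRCm38), was looked at after its values had been seen. Its log2 difference from control was 0.05, 1.24 and 0.90 at 2, 4 and 8 h of BMH-21 (0.14, 1.44 and 1.29 with median-ratio factors), whereas for CX-5461 it was 0.10, 1.09 and 0.69 (0.29, 1.36 and 0.60). It rose at 4 and 8 h of both compounds on the deposited scale (limma adjusted p = 4.9e-17, 5.8e-11, 3.2e-14 and 4.7e-07), while Myc fell in the same groups.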
